A study of Mus musculus with 16 samples.

Results

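RNA from the right neocortex of mice 4 weeks after neonatal brain hemisuction (NBH, labelled NBI 4W) was compared with RNA from controls of the same age (labelled NC P35). Members were chosen by their labels alone, as the pools titled NBI 4W and NC P35, each hybridised once with Cy3 and once with Cy5, which gave 4 of the 16 arrays and 2 of the 8 pools of the series. The other pools held controls at P7, P14 and 10 weeks of age and NBH at 1 week, sampled at P14. They also held adult brain hemisuction (ABH) at 1 and 4 weeks, sampled at 11 and 15 weeks of age. All mice were C57BL/6J. NBH animals had the left cerebral cortex with the sensorimotor cortex aspirated at P7, so that their age at sampling, P35, was that of the control. The tissue taken was the unlesioned right neocortex rostral from bregma, and the methods describe male animals whose RNA was pooled within a group. Controls were not described as sham operated, so anesthesia, opening of the skull and aspiration differed between the pools together. As each condition was 1 pool, the pair of arrays per pool repeated the labelling and hybridisation only. No test between the pools was therefore possible, and the SD given beside a value is that of the 2 dyes and covers no difference between animals.

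In rodents the corticospinal tract grows out and is pruned over the weeks after birth. A hemisphere that loses its partner early is known to keep or form projections to the side of the body that it would not normally control, which is why its transcriptome was of interest. Rostral neocortex lies over the striatum, the septum and the basal forebrain, next to the olfactory bulb and the lateral ventricle, whose choroid plexus secretes cerebrospinal fluid. A dissected block of it can carry RNA from these neighbours, each of which has defining genes of its own.

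Signals were scaled within each array, and a level is the log2 ratio of a probe to the 75th percentile of its array (level 0). On the 4 arrays this percentile lay between 1040.1 and 1532.3 fluorescence units over a median local background of 59 to 71, and 65.4% to 71.7% of the spots were well above background. Markers of the neocortex were present in both pools. Tbr1, a transcription factor of cortical projection neurons, had levels of 4.59 and 4.66 (Cy3 and Cy5) in the control and 4.75 and 4.90 in NBH. All 16 upper-layer markers and all 26 deep-layer and corticospinal markers were compared, which means that each was well above background in at least 1 of the pools.

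Of 20134 genes with a value on every array, 15871 were compared, being well above background with both dyes in the control, in NBH or in both. A gene was called when it differed by 1.5-fold or more (0.58 on the log2 scale) in the same direction with both dyes. By this limit 68 genes (0.428% of those compared) were called higher in NBH and 163 (1.03%) lower, so that 70.6% of the calls were lower. Only 13 and 45 of them differed by 2-fold or more with both dyes. The median log2 difference of all compared genes was 0.03 with either dye. The difference between the dyes had an SD of 0.30 over the compared genes, and 21 genes passed the limit in opposite directions. Because the pools were bulk tissue, fewer cells of a type and less RNA per cell cannot be told apart.

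**Figure D1:**
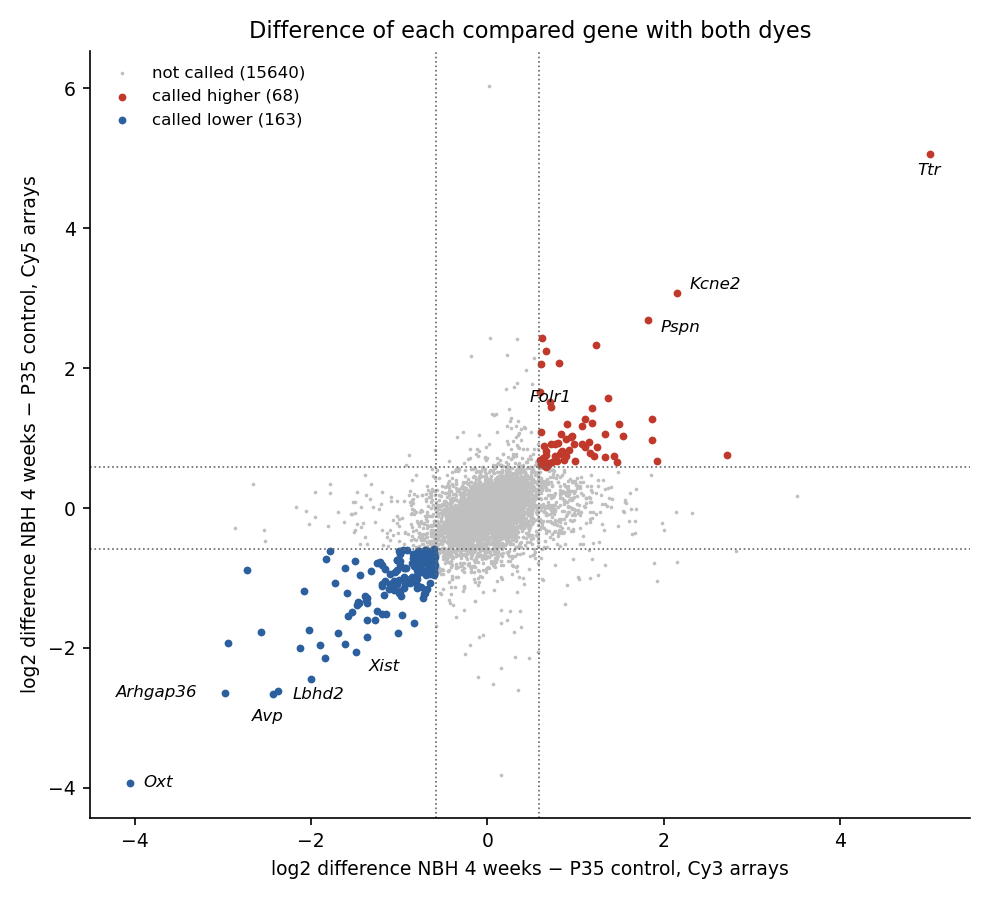
Log2 difference of NBH 4 weeks minus the P35 control for each compared gene, with the Cy3 arrays on the x axis and the Cy5 arrays on the y axis; dotted lines mark the 1.5-fold limit. The 68 genes called higher lie at the upper right, led by Ttr, and the 163 called lower at the lower left, led by Oxt.

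Choroid plexus genes included the highest calls. Ttr, the thyroxine carrier that choroid plexus epithelium secretes, had levels of -1.05 and -1.12 (Cy3 and Cy5) in the control and 3.96 and 3.94 in NBH. Its difference of 5.04 ± 0.03 (SD of the dyes, n = 2 arrays) corresponded to 32.9-fold. All 3 other control pools lay at or below 0.42, whereas NBH at 1 week had 5.06 and 5.03 and ABH at 4 weeks 4.71 and 4.70. ABH at 1 week, at -1.46 and -1.38, resembled the controls. Kcne2, a potassium channel subunit of that epithelium, was not well above background in the control, at -6.89 and -6.31, and reached -3.00 and -2.58 in NBH. It was at least 6.12-fold higher in NBH.

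Of 30 choroid plexus genes 25 were compared, and 8 were called higher and none lower, beside 0.428% and 1.03% of all compared genes. The median of the list was 0.27, beside 0.03 over all genes. With normexp background correction 4 were called higher, and with Cy5 alone the median was 0.14. Besides Ttr and Kcne2, these were Folr1, Slc4a5, Krt18, Kl, Sostdc1 and F5. Folr1, the folate receptor that loads folate into cerebrospinal fluid, had levels of -2.64 and -2.89 in the control and -1.46 and -1.67 in NBH, which was 2.30-fold higher. Kl, the klotho co-receptor of fibroblast growth factor signaling, moved from -3.59 and -3.58 to -2.79 and -2.65 (1.82-fold). Sostdc1, a secreted antagonist of bone morphogenetic proteins, was 1.80-fold higher, and its second probe was called as well, with a difference of 0.91. The second probe of Folr1 differed by 0.12 only, so its call rests on 1 probe. Slc4a5, a bicarbonate transporter, was 2.16-fold higher against the P35 control, but its difference was -0.71 against the 10 weeks control.

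The list did not move as a whole. Aqp1, the water channel of the apical membrane, had differences of 0.58 and 0.84 and just missed the limit with Cy3. Igf2 had -0.45 and -0.90, Clic6 -0.33 and -0.31, and Otx2, which specifies the tissue, -0.30 and -0.20. Cldn2, Cldn1, Krt8, Lmx1a and Wfdc2 did not pass the background filter in either pool by the probe that stood for the gene. Another probe of Wfdc2 did and was not called, with 0.46 and -0.96. Markers of the adjoining ependyma and meninges differed in another way, since none of 19 ependymal and none of 20 leptomeningeal genes were called higher. Tmem212 was the 1 ependymal gene called lower, with -0.59 and -0.81. Ecrg4, a secreted peptide precursor made by choroid plexus and ependyma that was on no list, had differences of 1.11 and 1.27 (2.28-fold). Whether the dissected blocks held different amounts of choroid plexus was not tested.

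Red blood cell genes were higher as well. Hbb-bs, an adult beta globin, had levels of 1.31 and 1.30 in the control and 2.46 and 2.26 in NBH, a 2.07-fold difference. Hbb-b2 was 1.99-fold and Hbb-bt 1.93-fold higher. These beta globins are nearly identical, so their probes may read each other's RNA and do not count as separate observations. Alas2, the enzyme that starts heme synthesis in erythroid cells, moved from -0.44 and -0.73 to 0.40 and 0.33 (1.93-fold). In all, 4 of 7 compared blood cell genes were called higher and none lower, beside 0.428% and 1.03% of all compared genes. The list median was 0.95, beside 0.03 over all genes. All of these calls except Alas2 were the beta globins, so the count is not one of separate observations. Hba-a1, saturated on 2 of the 4 arrays, missed the limit with Cy5 (0.70 and 0.54), and Slc4a1, the anion exchanger of the red cell membrane, differed by 0.04 and 0.07. The levels in ABH at 1 week were higher than those in NBH, with 3.35 and 3.39 for Hbb-bs, and the lowest were found in ABH at 4 weeks, with 0.54 and 0.77. How much blood stayed in each sample was not tested.

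The sequences before the starts of Hbb-bs and Hbb-bt are shown because both genes were called higher and both hold the classical erythroid CACCC and CCAAT boxes. In RefSeq (GRCm38.p6) the Hbb-bs start region lies at chr7:103827929-103828178 and that of Hbb-bt at chr7:103813924-103814173, both on the minus strand, as the 250 bases upstream of the start. Capitals mark the CACCC box, the box that reads CCAAT (or ATTGG where it lies on the opposite strand) and the GATA motif AGATAA, each searched on both strands.

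Hbb-bs: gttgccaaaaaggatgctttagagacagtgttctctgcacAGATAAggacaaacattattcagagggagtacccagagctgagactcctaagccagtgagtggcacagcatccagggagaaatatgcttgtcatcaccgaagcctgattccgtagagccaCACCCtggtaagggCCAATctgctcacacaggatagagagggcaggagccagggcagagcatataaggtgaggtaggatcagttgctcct

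Hbb-bt: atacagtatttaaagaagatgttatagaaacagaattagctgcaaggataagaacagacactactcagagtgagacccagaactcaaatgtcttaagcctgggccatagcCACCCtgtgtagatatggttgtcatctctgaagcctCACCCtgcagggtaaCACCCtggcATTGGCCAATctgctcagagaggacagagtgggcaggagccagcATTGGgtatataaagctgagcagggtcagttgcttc

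Hbb-bs held 1 match of each motif, whereas Hbb-bt held 3 matches of the CACCC box, 3 of the CCAAT box and none of the GATA motif. Among all 32851 start regions of that length, the share that held CACCC was 52.0%, the share that held CCAAT was 33.8% and the share that held AGATAA was 10.0%, so these letters are common and describe the regions only. No match and no absence of a match says anything here about a bound factor. Of the 72 called genes chosen by the rule for named genes, 60 had an entry in this table.

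Genes of hypothalamus and basal forebrain included the lowest call. Oxt, which encodes the hypothalamic peptide oxytocin, had levels of 1.57 and 1.39 in the control and -2.47 and -2.54 in NBH, a difference of -3.99 ± 0.08 (SD of the dyes, n = 2 arrays) or 15.9-fold. Avp, the vasopressin precursor, had -1.65 and -1.80 in the control and -4.09 and -4.46 in NBH (5.85-fold lower). For both peptides it was the P35 control that stood apart. Oxt lay between -3.66 and -1.33 on the other 6 control arrays, which includes the levels of NBH. Avp lay between -5.06 and -4.12 on them, and NBH was within 0.03 of that range. Avp was called in the opposite direction at 1 week, by a difference close to the limit. NBH at 1 week had -3.96 and -3.98 against -4.55 and -4.62 in the P14 control.

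Both genes lie close together on chromosome 2 of GRCm38.p6 and face each other, which is why their start regions are shown. That of Oxt is chr2:130575919-130576168 on the plus strand and that of Avp chr2:130582589-130582838 on the minus strand. Capitals mark AGGTCA, a motif of nuclear receptors, which reads TGACCT where it lies on the opposite strand.

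Oxt: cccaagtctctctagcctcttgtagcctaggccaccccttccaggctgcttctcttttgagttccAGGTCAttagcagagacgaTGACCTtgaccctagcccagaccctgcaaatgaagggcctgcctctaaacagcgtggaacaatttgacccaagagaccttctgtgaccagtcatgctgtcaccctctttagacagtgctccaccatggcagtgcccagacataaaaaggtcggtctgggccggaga

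Avp: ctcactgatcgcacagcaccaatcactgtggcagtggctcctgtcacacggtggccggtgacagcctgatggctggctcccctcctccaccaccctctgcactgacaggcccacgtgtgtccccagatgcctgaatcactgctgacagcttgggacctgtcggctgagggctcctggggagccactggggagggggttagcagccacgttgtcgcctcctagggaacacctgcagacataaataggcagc

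Oxt held 2 matches, 1 on each strand, and Avp none, while 14.0% of all start regions held at least 1.

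In all, 17 of 20 hypothalamus and basal forebrain genes were compared, and 9 were called lower and none higher. Over all compared genes 1.03% were called lower and 0.428% higher. The list median was -0.68, beside 0.03 over all genes. Next to the peptides stood Trh, the precursor of thyrotropin-releasing hormone, which moved from -0.13 and -0.12 to -1.49 and -1.73 (2.79-fold lower). Cholinergic genes of the basal forebrain were also among them. Slc5a7, the choline transporter, had -0.90 and -1.0 in the control and -2.09 and -2.08 in NBH (2.19-fold lower), and its second probe was called too, with -1.58. Slc18a3, which fills vesicles with acetylcholine, was 1.63-fold lower. Chat, the enzyme that makes it, had -0.84 and -0.53 and missed the limit with Cy5. Ngfr, a neurotrophin receptor of these neurons that was on another list, was 2.08-fold lower, with -1.23 and -1.40 in the control and -2.26 and -2.49 in NBH.

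Lhx8, a transcription factor of cholinergic neurons, had levels of -1.43 and -1.29 in the control and -3.43 and -3.72 in NBH (4.66-fold lower). It was also called at 1 week, with a mean difference of -1.0, and against the 10 weeks control and the mean of the P14 and 10 weeks controls. Zic1 was 1.60-fold lower, although its second probe differed by -0.05 only. Baiap3 was above background on 1 of the 2 NBH arrays and was 2.38-fold lower. Pomc, Hcrt, Pmch and Agrp, peptides of the arcuate nucleus and lateral hypothalamus, were not called, and their mean differences lay between -0.03 and 0.28.

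Striatal genes were lower than in the P35 control throughout. Medium spiny neurons are the output cells of the striatum, and all 20 of their genes on the list were below 0 with both dyes. Of these 12 were called lower, beside 1.03% of all compared genes, and the median was -0.64, beside 0.03. Drd1, the dopamine receptor of the direct pathway, had levels of 1.05 and 1.00 in the control and 0.21 and 0.17 in NBH (1.78-fold lower). Drd2, the receptor of the indirect pathway, was 1.66-fold lower, with -1.87 and -1.98 against -2.47 and -2.84. Among the others called were Tac1, Rgs9, Pde10a, Rarb, Gpr6, Scn4b, Ido1, Syndig1l and Isl1. Isl1, a transcription factor that specifies direct pathway neurons and that is active in cholinergic neurons as well, differed most, by 2.71-fold. Adora2a (-0.51 and -0.50), Ppp1r1b (-0.46 and -0.24) and Penk (-0.57 and -0.10) were not called, the latter pair being saturated on 2 of the 4 arrays.

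Olfactory bulb genes were lower as well. Of 12 genes 11 were compared, and all 11 were below 0 with both dyes. Of these 6 were called lower, beside 1.03% of all compared genes, and the median was -0.77, beside 0.03. With normexp background correction 3 were called lower and the median was -0.24. Cdhr1, a cadherin of mitral and tufted cells, moved from -1.02 and -1.10 to -2.49 and -2.43 (2.65-fold lower), which was below every control array. Calb2, the calretinin of periglomerular and other interneurons, was 2.16-fold lower, with levels of -3.16 and -2.88 in the control and -4.17 and -4.10 in NBH. Doc2g was 2.07-fold, Pbx3 1.80-fold and Sp8 1.71-fold lower. Eomes, above background on 1 of the 2 NBH arrays, was 1.72-fold lower. The second probe of Sp8 did not differ (0.00). Th and Nmb stayed within 0.3 of 0 with both dyes.

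**Figure D2:**
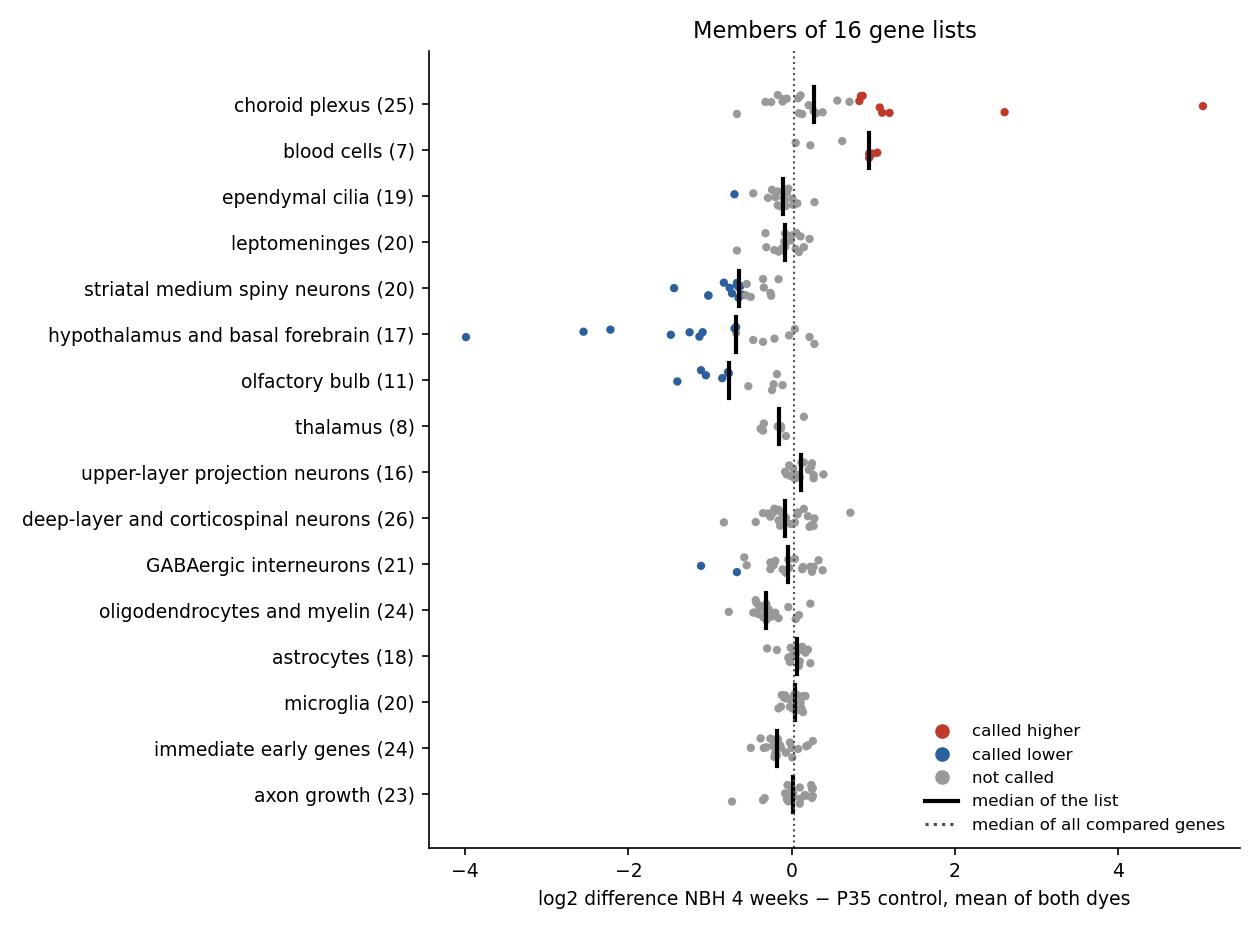
Mean log2 difference of both dyes for the compared members of 16 gene lists, with the number compared in parentheses, the list median as a black bar and the median of all compared genes (0.03) as a dotted line. Calls higher are most frequent in the choroid plexus (8) and blood cell (4) lists, and calls lower in the striatal (12), hypothalamic (9) and olfactory bulb (6) lists.

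Of all calls, only 14 of the 68 higher and 33 of the 163 lower belonged to any of the 44 lists, so that most called genes lay outside them. Since the control at P35 is 1 pool, the same lists were read against other controls. Against the 10 weeks control, 85 genes (0.523% of those compared) were called higher and 901 (5.55%) lower. Against the mean of the P14 and 10 weeks levels, which bracket P35 in age and were chosen after the data were seen, 99 (0.636%) were higher and 272 (1.75%) lower. Of the 68 genes called higher, 23 and 20 were also called higher against these controls. Of the 163 called lower, 66 and 62 were also called lower.

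The lists behaved differently in this respect. Choroid plexus genes called higher numbered 8 against P35, 9 against 10 weeks and 6 against the mean, and blood cell genes 4, 5 and 5. Striatal genes called lower, by contrast, numbered 12, 2 and 2, and the list median against 10 weeks was 0.01. For hypothalamus and basal forebrain the numbers were 9, 3 and 5, with Lhx8 called each time, and for the olfactory bulb 6, 6 and 3, with Cdhr1 and Calb2 called each time. Lower calls against 10 weeks were frequent outside these lists too, with 5.55% of all compared genes and 167 of 335 compared olfactory receptors. The bulb count of 6 against 10 weeks was among 10 compared genes. That is a larger share than over all genes and nearer to that of the olfactory receptors.

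**Figure D3:**
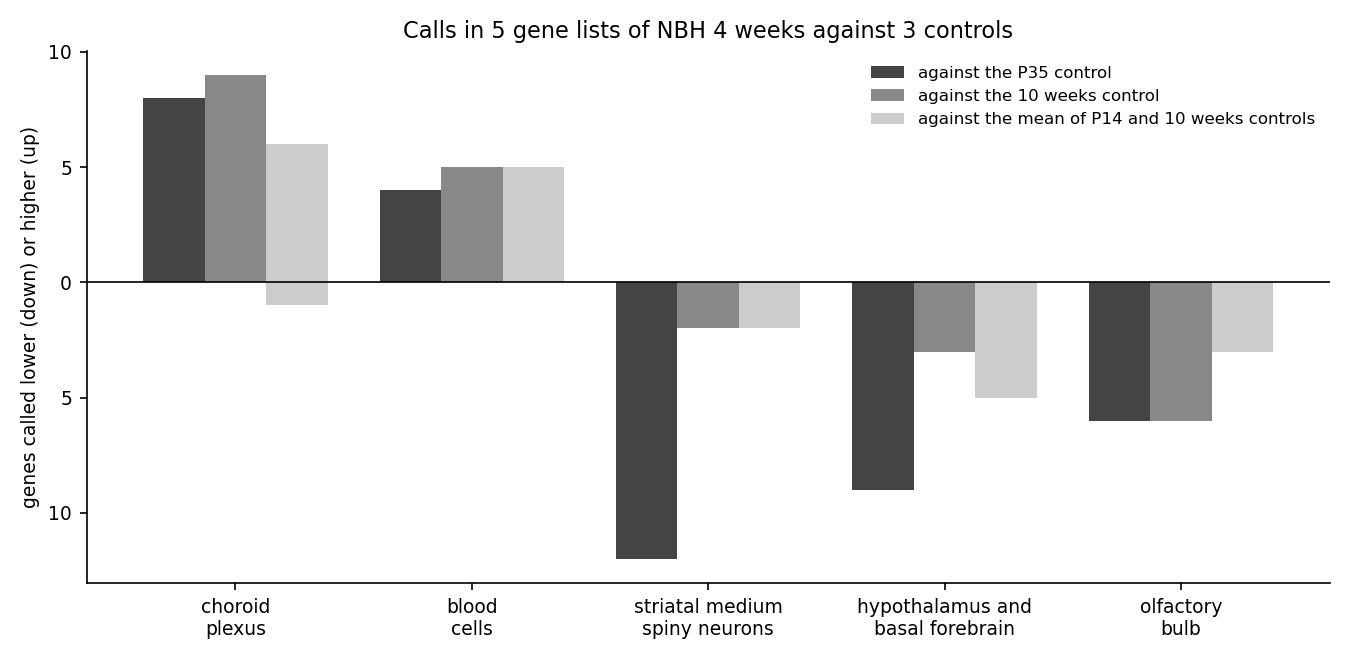
Number of genes called higher (upward bars) and lower (downward bars) in NBH 4 weeks for 5 gene lists, against the P35 control, the 10 weeks control and the mean of the P14 and 10 weeks controls. Striatal calls number 12, 2 and 2, whereas choroid plexus calls higher number 8, 9 and 6.

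The mean levels of the lists placed both pools among the others. For the choroid plexus list, the control had -2.28 and -2.27 (Cy3 and Cy5) and NBH -1.65 and -1.62. All other control arrays lay between -2.35 and -2.02 and NBH at 1 week at -1.09 and -1.13. ABH had -2.22 and -2.14 at 1 week and -1.07 and -1.16 at 4 weeks. For the hypothalamus and basal forebrain list, the P35 control, at -1.25 on both arrays, was the highest of all 8 pools. For the striatal list, the P35 control (1.70 and 1.68) equalled the P14 control (1.70 and 1.67). NBH (1.07 and 1.04) lay near the 10 weeks control (1.19 and 1.15) and ABH at 1 week (1.05 and 1.1). NBH at 1 week had 1.41 and 1.37, and ABH at 4 weeks was the highest of all pools, with 1.78 and 1.84. For the olfactory bulb list, NBH had the lowest mean of all pools, with -1.94 and -1.96. Both ABH pools lay close to it and below all controls, with -1.82 and -1.75 at 1 week and -1.74 and -1.9 at 4 weeks. NBH at 1 week had -1.42 and -1.53. The part of the dissection border in these differences was not tested. On each slide the controls took row 1 and the operated pools row 2, so row and surgery cannot be told apart.

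**Figure D4:**
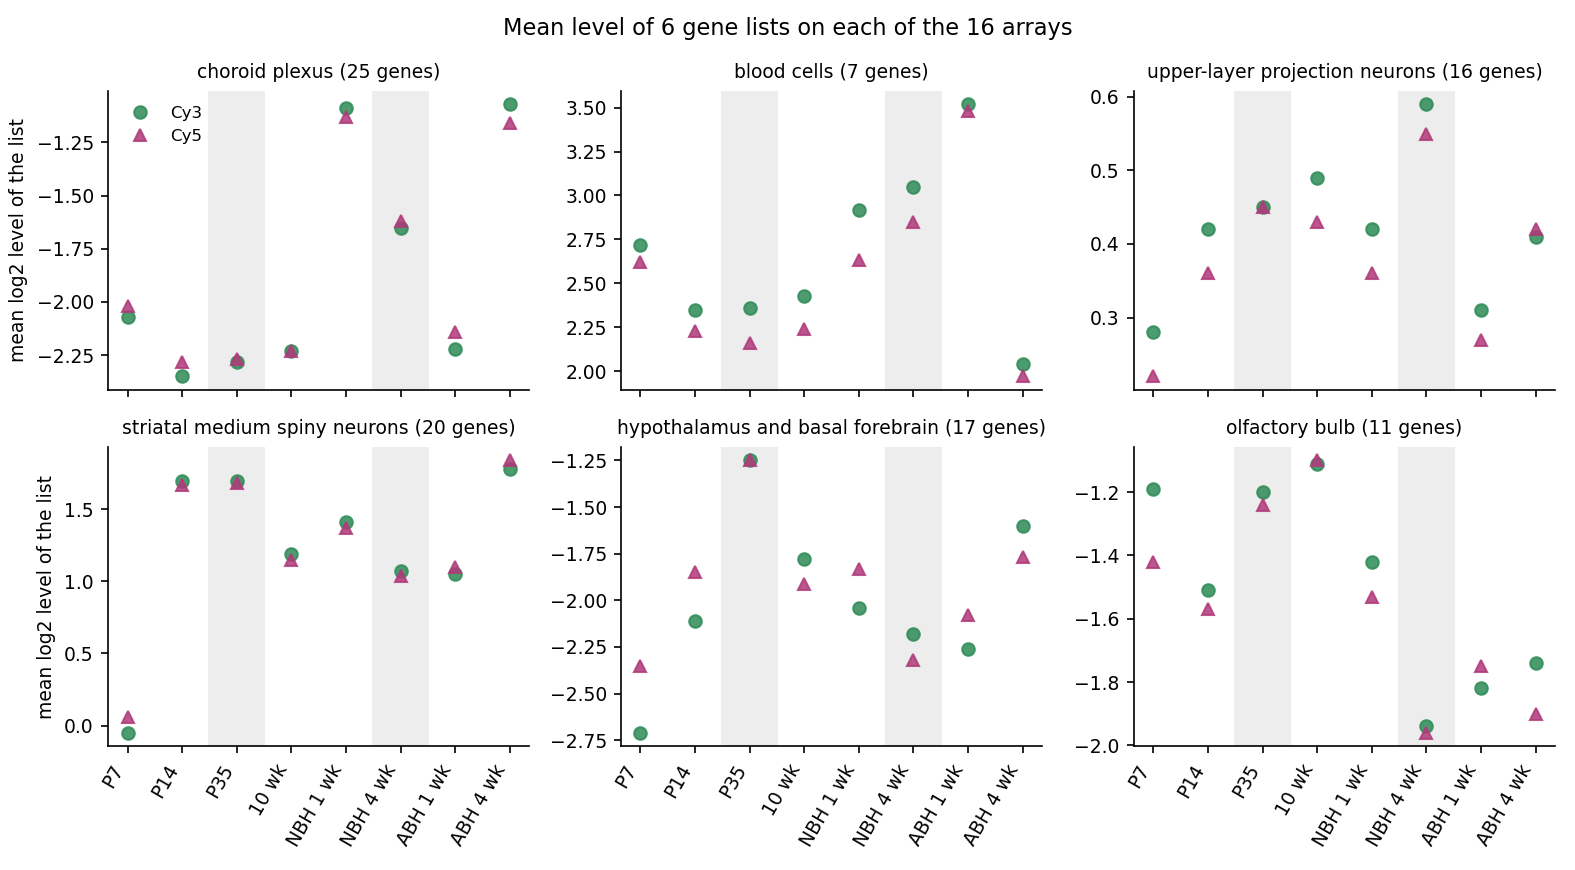
Mean log2 level of the compared members of 6 gene lists on each of the 16 arrays (circles Cy3, triangles Cy5), where 0 is the 75th percentile of the array and shaded columns are the P35 control and NBH 4 weeks. The P35 control is the highest pool for hypothalamus and basal forebrain, at -1.25 with both dyes. For the olfactory bulb NBH 4 weeks is the lowest, with both ABH pools close to it.

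Genes of the sex chromosomes also set the P35 control apart. Xist, the RNA that coats the inactive X chromosome and marks female cells, was well above background in the P35 control, at -3.68 and -3.17, and not in NBH, and was at least 3.41-fold lower there. Its second probe was above background on both P35 arrays, at -1.63 and -1.79, and on no other array of the series, which gave at least 11.2-fold. The Y-linked genes Ddx3y (0.40 and 0.35), Eif2s3y (0.59 and 0.57) and Uty (0.54 and 0.52) were all higher in NBH with both dyes, none of them called. Their mean level was -0.56 and -0.36 in the P35 control and between -0.10 and 0.32 in all other pools. The methods describe male animals, and whether the P35 pool held female tissue was not tested.

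Other genes that differed most belonged to no list. Arhgap36, a regulator of protein kinase A and hedgehog signaling, was 7.00-fold lower, with -1.64 and -1.58 in the control and -4.62 and -4.22 in NBH. Both hemisuction pools at 4 weeks and ABH at 1 week were below all controls for it. Lbhd2 was 5.62-fold and Ano2, a calcium-activated chloride channel, 3.42-fold lower. Dlk1, a Notch ligand related protein abundant in the hypothalamus, was 3.68-fold lower, and its second probe was at least 2.48-fold lower. Gpr101 (3.34-fold), Gipc2 (3.11-fold), Six3os1 (3.03-fold), Slc10a4 (2.95-fold), a vesicle protein of cholinergic and monoaminergic neurons, and Nts (2.85-fold), the neurotensin precursor, followed. Nts had 0.14 and 0.02 in the control and -1.40 and -1.47 in NBH, below all 8 control arrays. Cbx7, a Polycomb protein, was 3.97-fold lower, with -2.0 and -1.47 against -3.83 and -3.61. The P14 control had -3.44 and -5.87 and the 10 weeks control -1.53 and -0.92, so its level was lower in the younger of these controls with both dyes.

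Several folds were set by the background. Dipk2b (4.5-fold), Ms4a15 (4.19-fold), Retnla (3.50-fold) and Calcr (2.70-fold) were not well above background in NBH, and these folds are lower bounds. Among genes called higher, Pspn, a neurotrophic factor, was at least 4.77-fold higher, the receptors Olfr344 and Olfr723 at least 3.44-fold and 2.75-fold, and 9130230L23Rik at least 2.88-fold. Measured on all 4 arrays, 2610318N02Rik was 2.97-fold and Gtpbp10, a mitochondrial ribosome assembly factor, 2.78-fold higher, but the other probes of both genes were not called. Gtpbp10 had 0.74 and 0.50 in the control and 2.11 and 2.08 in NBH, while the P14 control reached 2.73 and 1.77. For 1700029M20Rik (2.72-fold), Ckap2 (2.52-fold), a spindle protein, and Olfr843 (2.09-fold), the dyes differed by over 0.8 from each other. Syt10, a synaptotagmin, was 2.48-fold, and Baiap2l2 and Tex22 each 2.00-fold higher. Against the 10 weeks control, Olfr843 and Baiap2l2 each differed by -0.05. Of 14 called genes with another compared probe, the other probes were all called alike for 7, in part for 1 and not at all for 6.

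**Figure D5:**
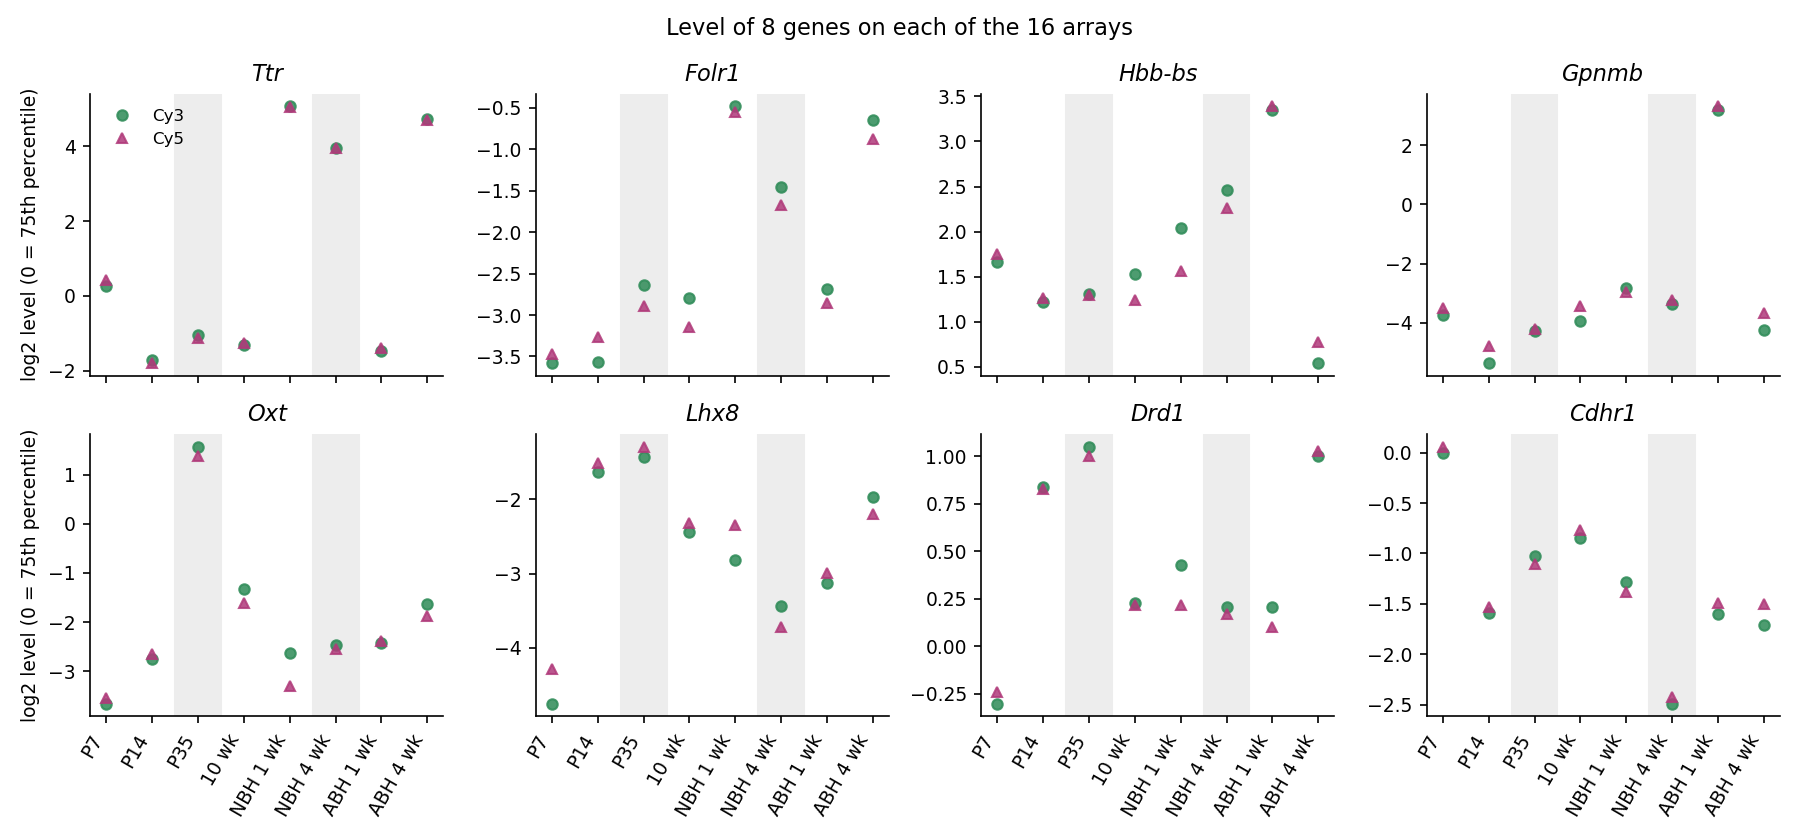
Log2 level of 8 genes on each of the 16 arrays (circles Cy3, triangles Cy5), where 0 is the 75th percentile of the array and shaded columns are the P35 control and NBH 4 weeks. Ttr is 3.96 and 3.94 in NBH 4 weeks and at or below 0.42 in all controls, and Oxt is 1.57 and 1.39 in the P35 control and below 0 in all other pools.

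The projection neurons of the neocortex showed no call, beside 0.428% higher and 1.03% lower over all compared genes. At these shares, lists of this size would hold few calls or none. None of 16 upper-layer genes was called, and their median was 0.11. Cux2, a factor of layers above the corticospinal cells, had the largest difference, 0.39 with both dyes. None of 26 deep-layer and corticospinal genes was called either, with a median of -0.08. Bcl11b (-0.43 and -0.45) and Fezf2 (-0.21 and -0.31), which specify corticospinal neurons, were lower with both dyes, while Tbr1 had 0.16 and 0.24. Bcl11b is also strongly expressed by medium spiny neurons. Sox5 (1.13 and 0.31) and Ntng2 (0.47 and -2.14) passed the limit with 1 dye alone.

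Genes of axon growth and guidance gave 1 call. Few calls are to be expected in lists of this size, as 0.428% of all compared genes were called higher and 1.03% lower. Of 23 compared axon growth genes none was called and the median was 0.02, with Gap43 at -0.05 and -0.01 and Plppr1 at -0.53 and -0.94. Of 45 guidance genes 1, Sema3d, was called lower (2.64-fold), with -2.91 and -3.79 in the control and -4.64 and -4.86 in NBH. Of 9 genes of myelin-associated inhibition, 1 was called lower, the receptor Ngfr already described. None of 22 glutamate receptor, 14 GABA receptor and 40 potassium and HCN channel genes was called. Interneuron genes gave 2 calls lower among 21, Calb2 and Tac1, which also stand on the bulb and striatal lists, whereas Pvalb (0.19 and 0.06) and Vip (0.30 and 0.35) were not called.

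Few glial genes were called at this age. None of 18 astrocyte, 20 microglia and 12 oligodendrocyte precursor genes was called, with medians of 0.06, 0.04 and -0.03. Over all compared genes 0.428% were called higher and 1.03% lower, so the absence of calls in such short lists says little. Gfap, the intermediate filament of astrocytes, differed by 0.03 and 0.02 and Aif1, the microglial calcium-binding protein, by 0.06 and 0.20. Among reactive astrocyte genes 1 of 18, the hyaluronan receptor Cd44, was called higher (1.56-fold), with its other compared probe at 0.00. Among genes of activated phagocytes 1 of 11, Gpnmb, a lysosomal glycoprotein, was called higher. It moved from -4.27 and -4.22 in the control to -3.38 and -3.23 in NBH (1.92-fold), had -2.82 and -2.98 in NBH at 1 week, and reached 3.20 and 3.32 in ABH at 1 week. No oligodendrocyte and myelin gene was called, yet 20 of 24 were below 0 with both dyes and the median was -0.31. This direction turned with the control, as the median was 0.11 against the 10 weeks control and 0.08 against the mean of the P14 and 10 weeks controls. The mean level of the list was 2.18 and 2.15 in the P35 control, above all other pools, and 1.91 and 1.83 in NBH. Mobp (-0.44 and -0.38), Ugt8a (-0.46 and -0.41), Fa2h (-0.49 and -0.46) and Opalin (-0.41 and -1.13) were among those below 0.

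The levels of the called genes were also set beside those of all control pools. These pools differed in age, so their range mixes age with differences between pools. It covers no difference between animals and is not a normal range. Of the 68 genes called higher, NBH was above all 4 control pools with both dyes for 35 (51.5%, beside 8.8% of all compared genes). Of the 163 called lower, NBH was below all controls for 52 (31.9%, beside 4.8%). Conversely, the P35 control was above the other controls for 58 (35.6%, beside 7.0%) of the genes called lower, and below them for 11 (16.2%, beside 8.7%) of those called higher. The calls used the same P35 and NBH arrays, which by itself raises these shares. Both conditions were met by 7 of the genes called lower and 5 of those called higher.

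Whether NBH was displaced along normal maturation was read from genes that differed by 2-fold or more with both dyes between the P14 and 10 weeks controls, neither of which entered the calls. Of the compared genes 443 (2.74%) were higher and 318 (1.97%) lower at 10 weeks. Of those higher at 10 weeks, 423 were compared in NBH, where 3 were called higher and 20 lower, and their median difference was -0.07 beside 0.03 over all genes. Of those lower at 10 weeks, 310 were compared, 3 were called higher and 17 lower, and the median was 0.01. Lower calls outnumbered higher calls in both sets, as they did over all genes (70.6% lower). Both sets also held lower calls more often (20 of 423 and 17 of 310) than the 1.03% over all compared genes. Higher calls numbered 3 of 423 and 3 of 310, beside 0.428% over all compared genes. These counts are too small to read as a difference from that share. In the first set 38.1% of the genes were above 0, beside 57.6% of all genes, and in the second 53.2%.

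At 1 week after hemisuction, against the P14 control, 138 genes (0.892% of those compared) were called higher and 66 (0.427%) lower, from arrays that share no sample with the comparison at 4 weeks. Called higher at both times were 15 genes, which is 22.1% of those at 4 weeks and 10.9% of those at 1 week. Among them were 7 of the 8 choroid plexus genes, without Slc4a5, and Ecrg4, Gpnmb, Hbb-bt, 2610318N02Rik and Tex22. The remaining 3 were Btk, a kinase of B cells and myeloid cells, and the homeobox genes Hoxc10 and Rax, chosen here after their values were seen. Called lower at both times were 8 genes (4.9% and 12.1%), among them Lhx8 and Syndig1l. Over the genes called higher at 4 weeks that were compared at 1 week, the median difference at 1 week was 0.49, beside 0.06 over all genes, and 32 of 48 were above 0 with both dyes. For those called lower it was -0.23, and 77 of 132 were below 0 with both dyes. The share of all genes with such a sign at 1 week was not counted.

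Of the 12 genes that the study picked for RT-PCR on these samples, 5 were compared. Ttr and Kcne2 were called higher and Xist lower, while Gdf3 (-0.01 and 0.14) and Phactr2 (0.06 and -0.39) were not called. Wfdc2, Msr1, Acod1, Cytip, Mov10l1, Asb17 and Il4 did not pass the background filter by the probe that stood for the gene. As the study picked the genes on these samples, their directions are no independent evidence.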

How the data were processed

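RNA pools of NBH 4 weeks and of P35 controls were each hybridised to an Agilent mouse 8 × 60 K array as Cy3 target and to another as Cy5 target. The authors quantified the spots with Agilent Feature Extraction 11.0.1.1. As deposited, the intensity of the labelled channel had its background subtracted and surface trends removed and was not scaled between arrays. The methods name LOWESS dye normalization, for which the file headers list 0 probes. The value table deposited by the authors holds the same intensity rounded, and it served as an alternative.

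From these intensities, control spots and outlier spots (146 to 237 per array) were dropped, values under 1 were set to 1, repeated spots were averaged, and log2 levels were taken relative to the 75th percentile. Probes were named through RefSeq accessions (GRCm38.p6, names only), with 26582 of 55681 probes matched, and the probe with the highest mean over 16 arrays stood for a gene. An array not well above background was held at its lowest level above background, or its own signal where higher, which gives the folds written as at least. Genes past 1.5-fold with both dyes were called. With 1 pool per condition no test was made, and the number of arrays limits the precision.

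Named genes were the 15 largest calls in each direction that were measured and unsaturated on all 4 arrays, the 5 largest bounds, the called members and up to 4 other members of each of 44 gene lists, the RT-PCR genes and defining markers. Ecrg4 and Arhgap36 fall under the first part of this rule, and other genes are named as examples. A few genes under the rule are not reported here. The members and lists were chosen with earlier results of these data known. Alternatives changed background correction, scaling, filter, limits, dyes, control pool and probe choice. Python 3.11.15 with numpy 2.4.6 and pandas 2.3.3, and limma 3.58.1 in R 4.3.3 for normexp, were used.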

Additional observations from a re-analysis of the deposited data

Results flagged for a closer look

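Avp and Gtpbp10 were called in opposite directions at the 2 times after NBH, each against the control of its own age, and the difference between the times was not tested. Avp differed by -2.55 at 4 weeks and by 0.62 at 1 week, the latter close to the limit of 0.58. With Cy3 its P14 level also lay near the lowest level above background of that array, -4.61. Gtpbp10 differed by 1.47 at 4 weeks and by -1.86 at 1 week. In both cases a control pool, P35 for Avp and P14 for Gtpbp10, lay apart from the other controls, and for Gtpbp10 the NBH pool at 4 weeks did so as well.

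In the colour that carried no target, 1.003% of the spots were well above background on the Cy3 array of NBH 4 weeks and 0.83% on that of the P35 control. On the Cy5 arrays the order was the other way, with 1.077% and 1.136%.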

How the results depend on the processing

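The main counts were 68 genes higher and 163 lower. The counts stayed within 1.5 times with median scaling (75 and 142) and quantile normalization (63 and 140). They were 34 and 58 with normexp and an offset of 50, 40 and 121 when all 4 arrays had to be above background, 13 and 45 at 2-fold, 43 and 122 with a p-value under 0.01 from the propagated errors, and 111 and 204 with the mean over a gene's probes. They were 470 and 741 without a background filter and 244 and 359 over probes. A lower limit of 0.75 gave 308 lower genes. Leaving out 1 dye gave 176 to 400 higher and 371 to 470 lower genes, with Cy5 alone (176 and 470) and with Cy3 alone (400 and 371), where 48.1% of the calls were lower. The authors' value table without scaling moved the median of all genes from 0.03 to -0.20 and gave 25 and 430, of which 94.5% were lower, with 3 choroid plexus genes called higher and 1 lower. The 10 weeks control gave 85 and 901 (91.4% lower), and the mean of the P14 and 10 weeks controls, chosen after the data were seen, 99 and 272. Of 72 called genes chosen by the rule for named genes, 61 kept their sign under every alternative with a value, but the size moved beyond the SD of the dyes for 49 with normexp, 51 with the authors' value table, 44 against the 10 weeks control and 45 against the mean of both controls. Against the 10 weeks control the sign turned for Slc4a5 (-0.71), Olfr843 (-0.05), Baiap2l2 (-0.05), Avp (0.02), Rgs9 (0.07), Pde10a (0.09), Scn4b (0.00), Syndig1l (0.09), Igfbpl1 (0.51) and Nnat (0.03). Against the mean of both controls it turned for Slc4a5 (-0.31), Avp (0.17), Tmem212 (0.26) and Scn4b (0.03). The causes were not tested. Normexp on the mean signal was not run, since that column is not in the tables used here. No paired analysis was possible because a shared replicate number marks the dye, both dyes carry the same RNA pools, and no test was made. Signal over background limits the precision of dim genes, and no value here covers the spread between animals.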

Other observations

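Immediate early genes, which follow neuronal activity, were slightly lower, since 17 of 24 were below 0 with both dyes and the median was -0.18. Against the 10 weeks control the median was -0.02. Fos had -0.42 and -0.34 and Egr3 -0.35 and -0.65, whereas Bdnf (0.25 and 0.27) and Homer1 (0.18 and 0.21) were higher, and none of them was called.

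Genes on the lists used here for signaling groups that the study also named were close to the median of all genes. None of 53 genes of EGF and PDGF signaling and none of 45 of NF-kB signaling was called, with medians of 0.00 and 0.06, and none of 15 cytokines and chemokines. With the authors' value table without scaling, 3 of the 53 were called lower, and their median was -0.23 beside -0.20 over all genes. The study sorted its own selection of genes by PCR array categories, so these counts do not check its result. Of 237 compared olfactory receptors, 60 of which were not above background on all 4 arrays, 4 were called higher and 11 lower (beside 0.428% and 1.03% of all genes), and their median was -0.13. Against the 10 weeks control 167 of 335 were called lower, beside 5.55% of all genes. Of 65 compared vomeronasal receptors, 21 of which were not above background on all 4 arrays, 4 were called higher and 1 lower. Their median was -0.02. Against the 10 weeks control 30 of 82 were called lower and none higher. Among 17 genes of immature neurons, Igfbpl1 (1.68-fold) and Nnat (1.65-fold) were called lower, both of which declined over the control ages.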
